A study of Homo sapiens with 2 samples.

Results

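Transcripts of 9 tight junction genes were compared between cultures of a human corneal epithelial cell line in a serum-containing medium and in a serum-free medium. The genes were taken by symbol from the 26506 genes of the deposited tables, and all 9 were found. They encode the claudins CLDN1, CLDN4, CLDN7, CLDN12 and CLDN23, the membrane protein occludin (OCLN), and the cytoplasmic proteins ZO-1 (TJP1), ZO-3 (TJP3) and cingulin (CGN). The cells are the established line ATCC CRL-11515, and poly(A) RNA was sequenced after 72 hours of culture in either medium. The special medium was DMEM/F12 with an addition of 1 mM calcium chloride, and it also held fetal bovine serum (10%), antimicrobials and the growth factor EGF (10 ng/mL). The other was keratinocyte serum-free medium (KSFM), whose calcium content the labels do not give. RNA of 3 cultures was pooled per medium, so each condition is 1 library. There is no replicate spread, no test between media and no p-value, and a change in all cells cannot be told apart from a change in the share of cells that express a gene.

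Tight junctions seal the space between neighbouring epithelial cells near their apical surface. Claudins span the membrane and form the paired strands that set how tight the seal is and which ions pass, and occludin sits in the same strands. ZO proteins are scaffolds that bind claudin tails on the cytoplasmic side and tie them to actin, and cingulin links ZO proteins to the actomyosin belt. In the cornea this seal lies in the outermost cells of the epithelium and keeps tear fluid out of the tissue, and its assembly needs extracellular calcium.

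The libraries held 16900472 counts in the special medium and 21604652 in KSFM. Of 12 corneal epithelium markers 7 reached 1 CPM (counts scaled to library size, not to gene length), with a median log2 ratio of 0.96, and the list summed to 4357 TPM (transcript abundance adjusted for gene length, with the same total in each library) in the special medium and 1875 TPM in KSFM. By the call rule given with the members, 3 were higher, KRT19 by 3.43-fold (3.29 to 3.58), KRT15 by 3.40-fold (2.51 to 4.66) and TKT by 2.83-fold (2.74 to 2.93), and none was lower. That rule called 9.86% of all genes at 1 CPM or more higher and 6.77% lower. KRT5 was 0.66-fold (0.61 to 0.72), short of the rule. KRT18, at 1.94-fold (1.91 to 1.98) and also short of it, held 2503 TPM of the list sum in the special medium and 1128 TPM in KSFM. TP63, KRT14 and ALDH3A1 stayed below 1 CPM, with 13, 10 and 14 counts in the special medium and 5, 4 and 5 in KSFM. EPCAM had 449 TPM in the special medium and 301 TPM in KSFM. The keratins that define differentiated cornea were nearly undetected, with KRT12 at 0 counts in both libraries and KRT3 at 1 count in the special medium and 0 in KSFM, so the label of corneal epithelium rests on the submitters' description of the line. PAX6, the eye lineage transcription factor, had 73 counts in the special medium and 69 in KSFM. Of 9 vascular endothelial markers only CDH5 reached 1 CPM, with 236 counts in the special medium and 3 in KSFM, a ratio of 100.3-fold (33.9 to 490.0). The summed TPM of that list was 8.39 in the special medium and 0.78 in KSFM, and the endothelial claudin CLDN5 had 1 count in the special medium and 0 in KSFM. The 9 fibroblast markers summed to 3.27 TPM in the special medium and 2.64 TPM in KSFM. Immune markers summed to 77.2 TPM in the special medium and 62.8 TPM in KSFM, of which CD68 alone gave 70.9 TPM in the special medium and 59.5 TPM in KSFM, with 0 counts for PTPRC in the special medium and 1 in KSFM. CD14, a monocyte receptor, was called higher, at 39.5-fold (10.5 to 334) on 62 counts in the special medium and 2 in KSFM. LYZ, for lysozyme, was called lower, at 0.29-fold (0.14 to 0.57) on 11 counts in the special medium and 48 in KSFM. Over all genes, TPM ratios exceeded count ratios by a median of 0.17 on the log2 scale, and the summed TPM of each list carries that offset. On counts, CD68 was 1.05-fold (0.96 to 1.14) and COL1A1, a fibroblast marker, 1.10-fold (0.87 to 1.38). The 5 melanocyte markers summed to 15.96 TPM in the special medium and 11.9 TPM in KSFM, with none called. The part of such cells in the results below was not tested.

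CLDN4, TJP3 and CLDN1 were higher in the special medium, by 4.67-fold, 4.34-fold and 3.81-fold, and no member was called lower. To be called, a gene needed 1 CPM or more in at least 1 library, a difference of 2-fold or more, and an exact 95% Clopper-Pearson interval of the ratio clear of equality. Among 13632 genes at 1 CPM or more, that rule called 9.86% higher and 6.77% lower, so 59.3% of its calls were higher. On TPM (pseudocount 1), where the all-gene median log2 ratio shifts to 0.15, 78.4% of the genes past 2-fold were higher, and 63.4% after centring on that median. All 9 members passed the CPM filter in both libraries, and 3 of 9 (33.3%) were called higher. By the interval alone, with no minimum fold, 7 members lay above equality and 1, CLDN12, below it, where 37.2% of all genes lay above and 36.7% below. The median log2 ratio of the 9 genes was 0.56 (special medium over KSFM), against 0.00 for all genes at 1 CPM or more. The members were chosen with earlier results of these data known, so these shares describe the list and test nothing.

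**Figure D1:**
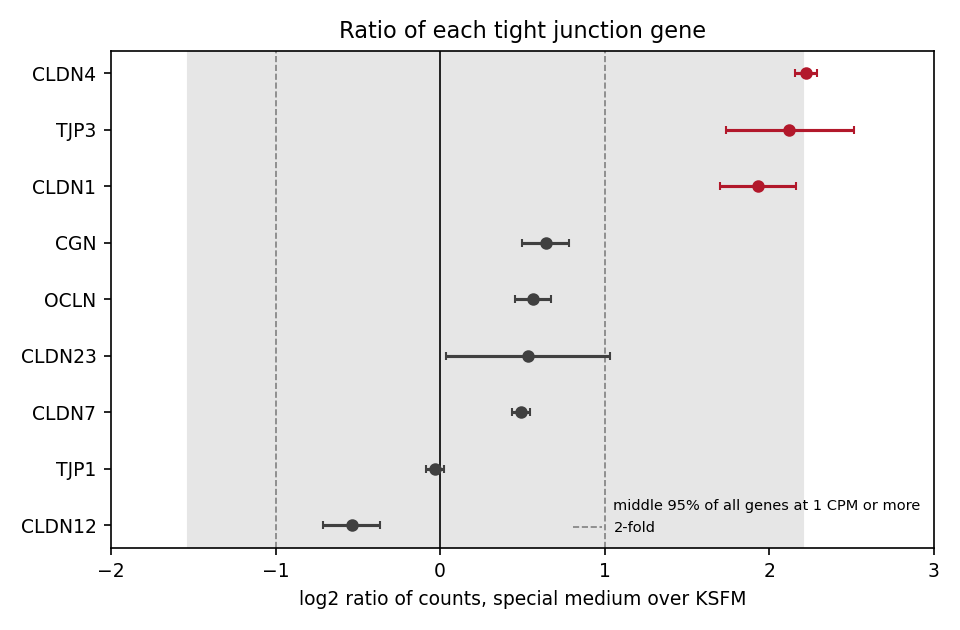
The log2 ratio of counts (x axis, special medium over KSFM) is given for each gene (y axis), with exact 95% intervals that cover counting error only. CLDN4, TJP3 and CLDN1, in red, lie at 2.22, 2.12 and 1.93, beyond the dashed 2-fold line, and the grey band, from -1.53 to 2.20, is the middle 95% of 13632 genes.

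CLDN4 encodes a barrier-forming claudin of many simple and stratified epithelia. It had 566 TPM in the special medium, against 107 TPM in KSFM, on 7982 counts in the special medium and 2181 in KSFM. The fold of 4.67 (4.45 to 4.90) placed it above 97.5% of genes at 1 CPM or more. CLDN4 was also the most abundant of the 9 transcripts in the special medium, higher than 98.4% of the same genes by TPM, where in KSFM it ranked below CLDN7. On GRCh38, in GENCODE release 29 bounds, CLDN4 (ENSG00000189143) lies on chromosome 7 from 73799542 to 73832693, and the nearest claudin gene, CLDN3, lies 29.3 kb away. CLDN3, named here for its position, was not called, at 1.17-fold (0.71 to 1.92) on 34 counts in the special medium and 37 in KSFM.

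CLDN1 encodes a sealing claudin that the skin barrier of mice requires. It had 22.8 TPM in the special medium, against 5.33 TPM in KSFM, on 627 counts in the special medium and 210 in KSFM. The ratio was 3.81-fold (3.25 to 4.47), so the interval spans 4-fold. CLDN1 (ENSG00000163347) lies on chromosome 3 from 190305701 to 190322475, and the bounds of CLDN16, a claudin of the renal tubule, lie 0.1 kb away. CLDN16 stayed below 1 CPM, with 13 counts in the special medium and 3 in KSFM.

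CLDN7 encodes a claudin found along lateral membranes as well as at the junction, where it binds the adhesion protein EpCAM. It was abundant in both libraries, at 396 TPM in the special medium and 254 TPM in KSFM. Its ratio of 1.41-fold (1.35 to 1.46) excluded equality but did not reach 2-fold. CLDN7 (ENSG00000181885) lies on chromosome 17 from 7259903 to 7263983 and overlaps ELP5 on the opposite strand, which had 723 counts in the special medium and 1327 in KSFM. The strand setting of the authors' counting is not given in the sources used here, so some uncertainty of read assignment applies to CLDN7.

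CLDN12 encodes a claudin whose cytoplasmic tail lacks the usual motif for binding ZO scaffolds. It ran against the other claudins, with 15.1 TPM in the special medium and 19.6 TPM in KSFM, on 437 counts in the special medium and 809 in KSFM. The fold was 0.69 (0.61 to 0.77), short of the 2-fold rule. CLDN12 (ENSG00000157224) lies on chromosome 7 from 90383721 to 90513402, and its bounds overlap those of GTPBP10 and CDK14 on the same strand.

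CLDN23, a less studied claudin, was scarce in both libraries, at 4.97 TPM in the special medium and 3.03 TPM in KSFM. With 75 counts in the special medium and 66 in KSFM, its ratio of 1.45-fold (1.03 to 2.05) is poorly bounded, and a 2-fold difference lies within the interval. The gene (ENSG00000253958) lies on chromosome 8 from 8701938 to 8704106.

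**Figure D2:**
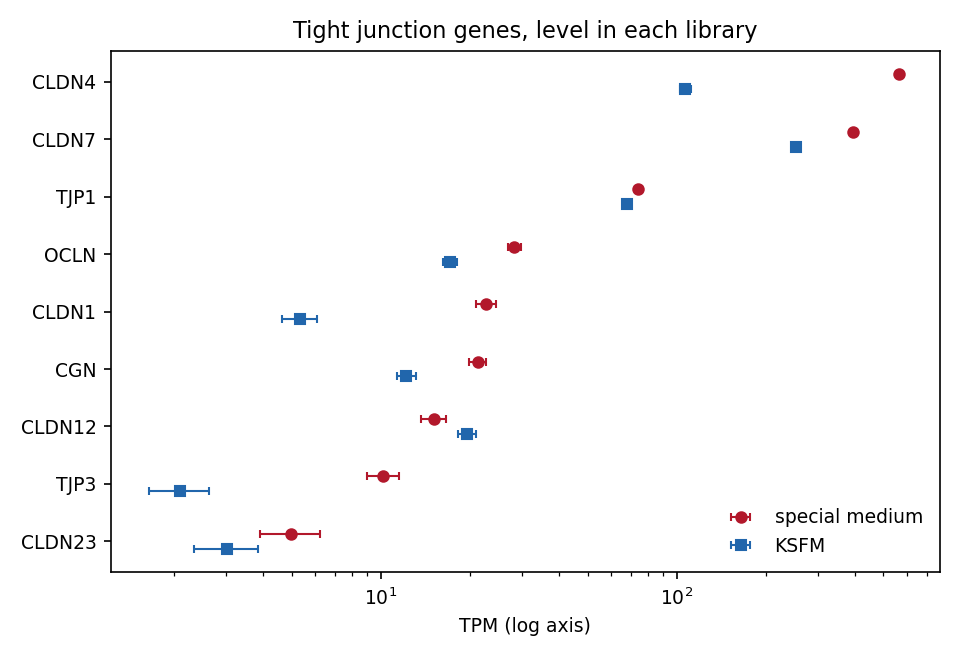
TPM as deposited (x axis, log scale) is given for each gene (y axis) in the special medium (red circles) and KSFM (blue squares). Bars are exact 95% Poisson intervals of the counts scaled to TPM. CLDN4 lies at 566 TPM in the special medium and 107 TPM in KSFM, the widest gap of the 9 in TPM units, while TJP1 lies at 74.4 TPM in the special medium and 68.0 TPM in KSFM.

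Occludin, a membrane protein of the strands that takes part in barrier regulation, had 28.3 TPM in the special medium and 17.1 TPM in KSFM. The OCLN ratio was 1.48-fold (1.37 to 1.60), above equality and short of the rule. Its estimated counts, 1436.17 in the special medium and 1239.25 in KSFM, were the only fractional ones among the 9 members, as shared reads give, and RefSeq lists a pseudogene copy, OCLNP1, on chromosome 5. OCLN (ENSG00000197822) lies on that chromosome from 69492292 to 69558104.

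The scaffold genes split in size. TJP3, for ZO-3, had 10.2 TPM in the special medium, against 2.09 TPM in KSFM, on 252 counts in the special medium and 74 in KSFM. Its 4.34-fold ratio (3.34 to 5.71) was close to that of CLDN4, and their intervals overlap. TJP1, for ZO-1, a scaffold on which strand assembly depends, had 74.4 TPM in the special medium and 68.0 TPM in KSFM. The TJP1 ratio on counts was 0.98-fold (0.94 to 1.02), which includes equality, and its sign differed between scales, with a log2 ratio of -0.03 on counts and 0.13 on TPM. CGN, for cingulin, had 21.3 TPM in the special medium and 12.2 TPM in KSFM, a ratio of 1.56-fold (1.41 to 1.72). The CGN level stood at 0.75 of the OCLN level in the special medium and 0.71 in KSFM by TPM. This was not particular to CGN and OCLN, as CLDN7, at 1.41-fold, and CLDN23, at 1.45-fold, had ratios near theirs. The TPM ratio of TJP1 to TJP3 was 7.31 (6.44 to 8.33) in the special medium and 32.5 (25.9 to 41.5) in KSFM, and ZO-3 remained the scarcer of the pair in both. TJP3 (ENSG00000105289) lies on chromosome 19 from 3708109 to 3750813, TJP1 (ENSG00000104067) on chromosome 15 from 29699367 to 29968865 and CGN (ENSG00000143375) on chromosome 1 from 151510510 to 151538692.

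**Figure D3:**
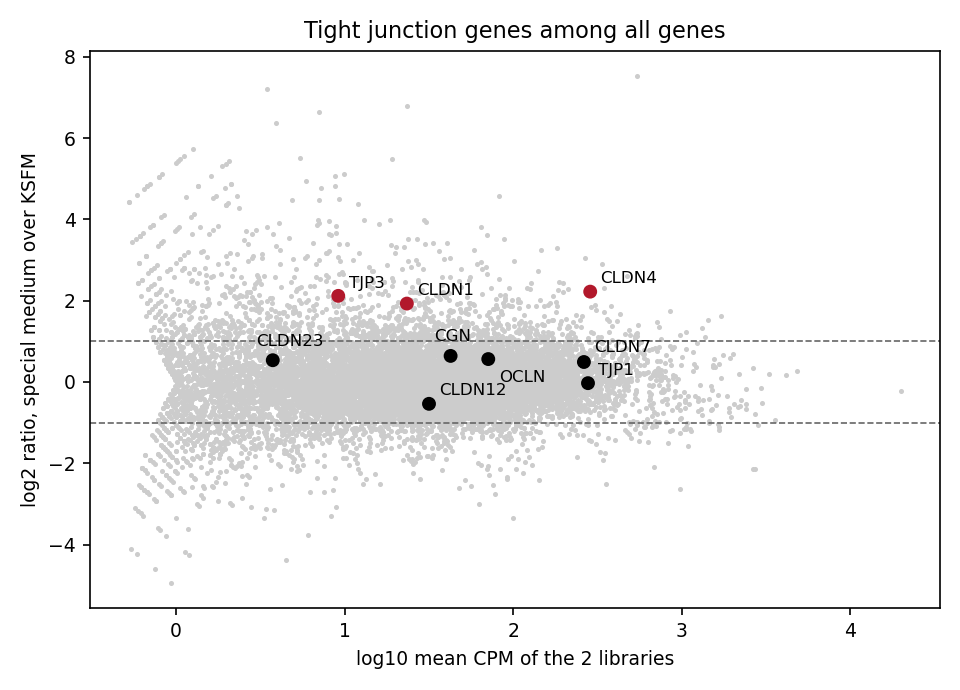
Each grey point is a gene at 1 CPM or more with counts in both libraries, placed by the log10 mean CPM of the libraries (x axis) and its log2 ratio, special medium over KSFM (y axis). Dashed lines mark 2-fold, and the members called higher, in red, are CLDN4, TJP3 and CLDN1, at 286, 9.16 and 23.4 mean CPM.

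The order of the 9 genes by TPM differed between the media. In the special medium it ran CLDN4, CLDN7, TJP1, OCLN, CLDN1, CGN, CLDN12, TJP3 and CLDN23, and the exact 95% Poisson intervals of neighbours overlapped only for CLDN1 and CGN. In KSFM it ran CLDN7, CLDN4, TJP1, CLDN12, OCLN, CGN, CLDN1, CLDN23 and TJP3, and only CLDN23 and TJP3 overlapped. The TPM ratio of CLDN4 to CLDN7 was 1.43 (1.38 to 1.48) in the special medium and 0.42 (0.40 to 0.44) in KSFM. CLDN12 changed places with CLDN1, their TPM ratio being 0.66 (0.59 to 0.75) in the special medium and 3.67 (3.15 to 4.29) in KSFM. TPM ratios exceeded count ratios by 0.15 to 0.18 on the log2 scale in all 9 genes, and the median of this offset over all genes was 0.17, with a 5th to 95th percentile range of 0.12 to 0.23. The offsets of the 9 genes lay within that range.

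Claudin transcripts summed to 1022 TPM in the special medium, against 401 TPM in KSFM, over 24 claudin genes in the tables. CLDN4 made up 55.4% of that sum in the special medium and 26.7% in KSFM, and CLDN7 38.7% in the special medium and 63.4% in KSFM. Together they held 94.1% in the special medium and 90.1% in KSFM. CLDN1 accounted for 2.23% in the special medium and 1.33% in KSFM, and CLDN12 for 1.48% in the special medium and 4.87% in KSFM. Of the 19 claudins outside the list of members, CLDN9, CLDN15 and CLDN3 reached 1 CPM. Of these 1, CLDN9, was called higher, against 9.86% of all genes. Its ratio was 2.35-fold (1.57 to 3.57) on 72 counts in the special medium and 39 in KSFM. That call was lost on centred TPM, with a 10 CPM filter, by a 4-fold rule and with intervals wholly beyond 2-fold. A further 6 claudins were detected below 1 CPM and 10 had 0 counts in both libraries, CLDN2, a claudin that forms cation pores, among them. Taking 3 counts as the limit that 0 allows, such genes lay below 0.177 CPM in the special medium and 0.139 CPM in KSFM. All intervals and limits cover counting error only, as each medium has 1 library. The labels describe no molecular identifiers, so copies of the same molecule may have been counted more than once and the intervals may be too narrow.

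**Figure D4:**
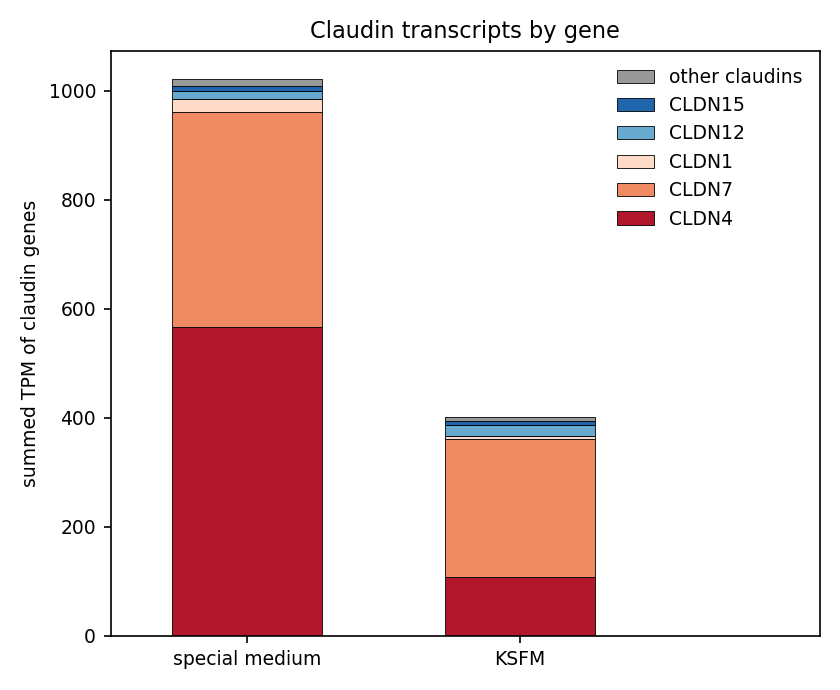
Bars stack the TPM of claudin genes (y axis, from 0) in the special medium (left) and KSFM (right), coloured by gene. The CLDN4 block is 566 TPM in the special medium and 107 TPM in KSFM, within totals of 1022 TPM in the special medium and 401 TPM in KSFM.

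The promoters of the members called higher, and of CLDN7 and OCLN, are shown with CAGGTG and AGGAAG marked. CAGGTG is an E-box of SNAI and ZEB factors, and the repressor SNAI2 binds it in junction gene promoters. AGGAAG lies in sites bound by the ETS family, which includes ELF3 and EHF. SNAI2 was called lower in the special medium and ELF3 and EHF higher, and the display was chosen with those calls known. SNAI1, the relative of SNAI2, was not called, at 0.86-fold (0.71 to 1.04). Whether any of these factors acted on the members was not tested. Each run is the 250 bases before a RefSeq start on GRCh38.p14, 5′ to 3′ on the gene's strand, with CAGGTG and AGGAAG on either strand in capitals. The CLDN4 window is chr7:73830746-73830995 (plus strand) and the CLDN1 window chr3:190322447-190322696 (minus strand). The windows for TJP3 (chr19:3721487-3721736, plus strand) and CLDN7 (chr17:7262479-7262728, minus strand) belong to the second RefSeq start of each gene, shown because the window of its first start held neither motif, and that for OCLN (chr5:69492297-69492546, plus strand) to its first.
CLDN4: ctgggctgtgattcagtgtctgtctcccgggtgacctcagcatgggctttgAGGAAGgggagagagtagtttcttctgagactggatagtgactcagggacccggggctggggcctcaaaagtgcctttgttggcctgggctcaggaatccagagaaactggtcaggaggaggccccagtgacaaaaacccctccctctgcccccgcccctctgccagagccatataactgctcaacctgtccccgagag
CLDN1: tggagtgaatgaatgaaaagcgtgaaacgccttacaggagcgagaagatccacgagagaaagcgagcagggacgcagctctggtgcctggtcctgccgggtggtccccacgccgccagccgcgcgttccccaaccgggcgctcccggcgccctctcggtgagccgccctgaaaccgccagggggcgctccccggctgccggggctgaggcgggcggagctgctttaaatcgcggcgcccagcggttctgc
TJP3: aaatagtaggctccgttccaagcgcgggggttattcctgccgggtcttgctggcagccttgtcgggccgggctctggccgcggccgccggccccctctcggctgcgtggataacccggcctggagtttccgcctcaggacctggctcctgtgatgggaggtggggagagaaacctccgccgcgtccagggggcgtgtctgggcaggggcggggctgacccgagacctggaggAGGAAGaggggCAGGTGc
CLDN7: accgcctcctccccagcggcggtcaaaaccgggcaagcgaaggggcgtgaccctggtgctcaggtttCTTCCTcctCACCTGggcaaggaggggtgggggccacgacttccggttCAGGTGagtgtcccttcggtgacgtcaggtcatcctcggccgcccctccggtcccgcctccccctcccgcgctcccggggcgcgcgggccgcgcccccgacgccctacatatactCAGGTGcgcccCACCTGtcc
OCLN: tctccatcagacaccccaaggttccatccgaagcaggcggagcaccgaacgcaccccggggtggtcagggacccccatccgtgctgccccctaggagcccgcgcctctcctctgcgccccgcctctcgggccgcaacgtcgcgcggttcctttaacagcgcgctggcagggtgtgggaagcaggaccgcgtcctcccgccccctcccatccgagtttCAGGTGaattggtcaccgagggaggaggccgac

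The second CLDN7 window held 4 copies of CAGGTG, starting 174, 135, 20 and 9 bases before the start, and 1 AGGAAG. The OCLN window held 1 CAGGTG at 33 bases and the TJP3 window 1 at 7 bases, beside an AGGAAG at 18 bases. The second OCLN window, not shown, held CAGGTG at 133 bases and AGGAAG at 203 bases. The windows of CLDN12 and CGN, also not shown, held neither. The CLDN4 window held no CAGGTG and 1 AGGAAG, at 199 bases, and the CLDN1 window held neither. TJP1, which was not called, also had both motifs, with CAGGTG at 88 bases in its first window and AGGAAG at 210 and 117 bases in other windows. Motifs were thus found beside genes that were called and genes that were not. CLDN23, on chromosome 8, was left out of the scan, while windows of that chromosome stayed among those of all genes. The other 8 of the 9 members had 14 RefSeq windows, of which 5 held CAGGTG and 6 AGGAAG. The shares over all 35116 windows of that length were 17.5% and 28.7%. The grainyhead-like motifs AACCGGTT and AACTGGTT were in none of the 14, and in 0.117% and 0.572% of all windows. A match is a string of letters and shows no binding, and which start the cells used was not measured.

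Around the members, 85 further junction genes in 6 lists were read by the same rule. All were found, 7 of them under older symbols, and 63 reached 1 CPM, of which 15 (23.8%) were called higher and 2 (3.17%) lower, against 9.86% and 6.77% of all genes. On TPM ratios centred on the median of all genes (pseudocount 1), 9 were higher and 1 lower. The calls lost there were CLDN9, PARD6B, AMOT, NECTIN2, CTNND1 and GRHL3, and JAM3 among the lower genes. The lists were written with earlier results known, so nothing beyond these counts is drawn from them.

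**Figure D5:**
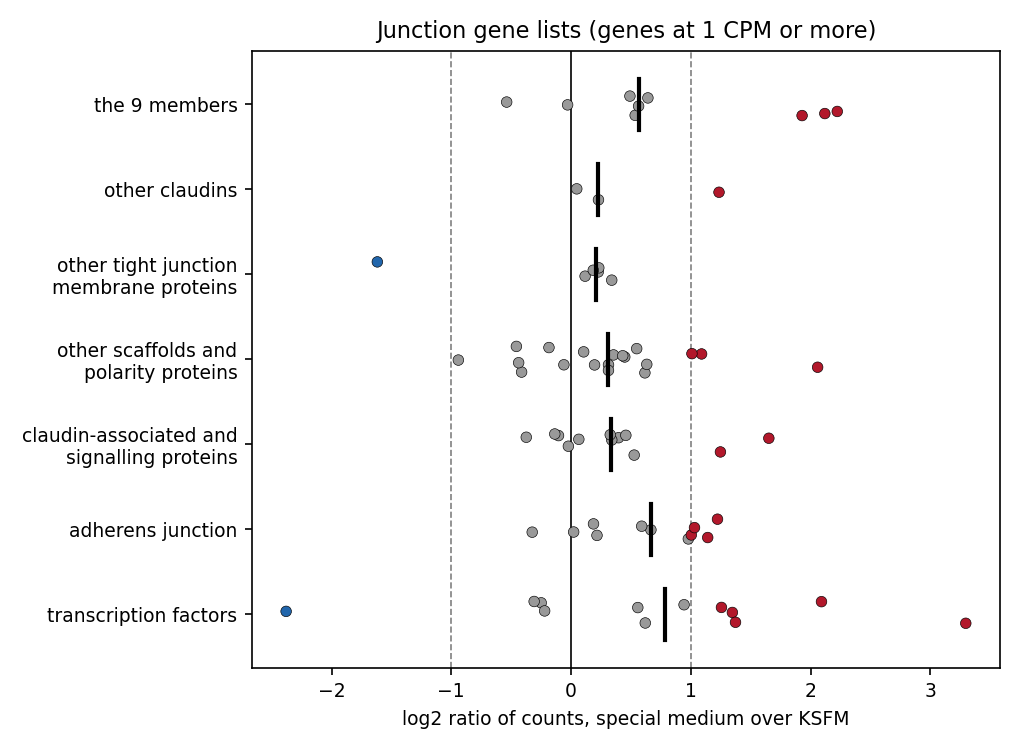
Points are genes at 1 CPM or more, placed by log2 ratio, special medium over KSFM (x axis), in each list (y axis), with the list median as a black bar, dashed lines at 2-fold, and vertical jitter for legibility. Genes called higher are red and genes called lower blue, and SNAI2, at -2.38, is the lowest point.

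Over all genes the call rule gave 9.86% higher and 6.77% lower. Of 6 other tight junction membrane proteins at 1 CPM or more, 0 were called higher, 1 lower and 5 neither, with a median log2 ratio of 0.21. The lower gene was JAM3, an immunoglobulin-family junction adhesion molecule, with 23 counts in the special medium and 90 in KSFM, 0.33-fold (0.20 to 0.52). Of 19 other scaffolds and polarity proteins 3 were higher and 0 lower, with a median of 0.31, and 1 was higher with the length and GC content trend removed, on centred TPM or by the 4-fold rule. AMOT, for angiomotin, which binds the scaffold PATJ and the coactivator YAP, was 4.17-fold higher (2.74 to 6.50) on 98 counts in the special medium and 30 in KSFM. PARD6B, an adaptor of the polarity complex with atypical protein kinase C, lay at the limit, 2.01-fold (1.70 to 2.38).

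Of 12 claudin-associated and junction signalling proteins 2 were higher and 0 lower, with a median of 0.33. ST14, for matriptase, a membrane serine protease that cleaves EpCAM, was 2.37-fold higher (2.23 to 2.53). Adherens junction genes were 4 higher and 0 lower of 11, against 9.86% and 6.77% of all genes, with a median of 0.67. The higher count was 2 with intervals wholly beyond 2-fold, 2 with the length and GC content trend removed, 2 on centred TPM and 0 by the 4-fold rule. JUP, for plakoglobin, was 2.33-fold higher (2.21 to 2.46), and VCL, for vinculin, which links the junction to actin, 2.21-fold (2.09 to 2.33). NECTIN2, an adhesion molecule, and CTNND1, for p120 catenin, were at the limit, at 2.04-fold (1.88 to 2.23) and 2.01-fold (1.93 to 2.08). The lowest ratio of the list was that of CDH1, for E-cadherin, at 0.80-fold (0.77 to 0.82), below equality but not called. It had 6849 counts in the special medium and 10937 in KSFM.

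Of 15 transcription factors known to act on junction genes, 12 reached 1 CPM. Of these 5 were higher, 1 lower and 6 neither, with a median of 0.78. TP63, ZEB1 and ZEB2 stayed below 1 CPM, with 13, 1 and 14 counts in the special medium and 5, 12 and 19 in KSFM. The shares over all genes were 9.86% higher and 6.77% lower. The ETS factor ELF3 had 224 TPM in the special medium and 20.3 TPM in KSFM, a log2 ratio on counts of 3.30 (3.18 to 3.41). Its relative EHF had 24.9 TPM in the special medium and 5.24 TPM in KSFM, a log2 ratio on counts of 2.09 (1.91 to 2.27). KLF4, a Kruppel-like factor of epithelial differentiation, was 2.59-fold higher (2.28 to 2.95). The repressor SNAI2 had 9.33 TPM in the special medium and 42.9 TPM in KSFM, 0.19-fold (0.16 to 0.23). The relation of these factors to the members was not tested.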

How the data were processed

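Poly(A) RNA of 1 pooled library per medium was measured. Per the submitters' processing notes, the tools were HISAT2 2.1.0, RSEM, fastp 0.20.0 and FastQC 0.11.9, on GRCh38. Their order, the gene annotation and the strandedness of counting are not stated there. Per the labels, the library kit keeps strand. The authors deposited estimated counts (fractional in 8.05% of genes in the special medium and 11.3% in KSFM) and TPM values by symbol for 26506 genes.

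Counts were rounded and library sizes scaled by edgeR 4.0.16 TMM factors of 1.00 in the special medium and 0.999 in KSFM. Ratios are special medium over KSFM with exact 95% Clopper-Pearson intervals conditional on the sum of both counts. TPM served for comparing genes. Gene bounds came from GENCODE release 29, where all 9 members had a single match, and promoters and older symbols from RefSeq (GRCh38.p14). Members and lists were chosen with earlier results of these data known. Named are all members and, per wider list, up to 4 called genes with the largest ratios, or the 2 highest in TPM where none was called. CLDN3, CLDN15, CLDN16, CLDN2, CDH1, SNAI1, ZEB1, ZEB2, GRHL3, neighbouring and overlapping genes and the cell type markers given were named after their values were seen. Values of a few called genes in these lists are not reported here.

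Alternatives were scaling by upper quartile, by DESeq2 1.42.0 size factors or by total count, TPM at a pseudocount of 1, 0.1 or centred (fold only), filters of 10 CPM or none, a 4-fold rule, intervals wholly beyond 2-fold, and removal of a cubic trend on effective length and GC content. Software was Python 3.11.15 (scipy 1.17.1, numpy 2.4.6, matplotlib 3.10.9, pandas 2.3.3) and R 4.3.3.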

Additional observations from a re-analysis of the deposited data

How the results depend on the processing

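CLDN4, CLDN1 and TJP3 were called higher under 10 of the 11 alternatives, and under the 4-fold rule CLDN4 and TJP3 were. The filter settings could not change these calls, as all 3 genes exceeded 10 CPM in the special medium. The other scalings could hardly do so, with log2 ratios of 1.91 to 1.93 for CLDN1. No member was called lower under any alternative, and none of the 3 called ratios changed sign. On TPM with a pseudocount of 1 the log2 ratio was 2.39 for CLDN4, 0.64 for CLDN7, -0.35 for CLDN12, 0.69 for OCLN and 0.13 for TJP1, and with 0.1 it was 2.40 for CLDN4, 0.64 for CLDN7, 0.72 for OCLN, 0.13 for TJP1 and 0.80 for CGN. Centred TPM gave TJP3 1.70. Removal of the length and GC content trend gave CLDN12 -0.71, OCLN 0.43 and TJP1 -0.12. In that setting the median log2 ratio of all genes was also lower, at -0.08, so part of these moves is common to all genes. The TPM values carry the common offset given above.

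In the wider lists, genes called higher numbered 9 on centred TPM and 3 by the 4-fold rule, against 15. Genes called lower numbered 4 with no filter and 1 on TPM with a pseudocount of 1, on centred TPM, with the 10 CPM filter, by the 4-fold rule and with intervals beyond 2-fold, against 2. Over all genes, against 1344 higher and 923 lower, the 10 CPM filter gave 788 and 446, the 4-fold rule 408 and 162, and intervals beyond 2-fold 837 and 395. Genes lower on TPM were 349 and 605 with the pseudocounts of 1 and 0.1, and 536 when centred. Fewer genes enter or pass the stricter rules by construction, and for the TPM settings the cause was not tested beyond that offset. No paired analysis was possible because each medium has 1 library, and no library could be left out. Depth limits CLDN23 and TJP3 most.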
